A study of Arabidopsis thaliana with 6 samples.

Results

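The regions described here are stretches of protein-coding genes in which CG methylation of Arabidopsis endosperm differed between one nrpd1 heterozygote and wild type (WT), and which appeared in that comparison alone. They were selected on the deposited lists of differentially methylated regions. A row of the mat nrpd1+/- against WT list or of the pat nrpd1+/- against WT list was kept if it overlapped no row of the other 2 of the 3 CG lists and if its midpoint lay inside a protein-coding gene. The rule kept 351 regions, 190 of the 600 in the mat nrpd1+/- list and 161 of the 707 in the pat nrpd1+/- list, out of 2488 CG rows in the 3 lists. They lay in 335 genes, 183 with a mat nrpd1+/- region and 158 with a pat nrpd1+/- region, among 27444 annotated protein-coding genes. By the rule, no member overlapped a row listed as differing between the heterozygotes. Absence from the other lists does not show that the other heterozygote was unchanged, since differences below the limit of listing are not given.

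The tissue was endosperm, dissected by hand 7 days after pollination and sequenced after bisulfite conversion, in 2 replicates of each of 3 genotypes. In mat nrpd1+/- endosperm the mother was Ler nrpd1-/- and the father Col-0. In pat nrpd1+/- endosperm the mother was Ler and the father Col-0 nrpd1-/-. WT endosperm came from a Ler mother and a Col-0 father, so every sample was a Ler by Col-0 F1. The mutant allele was nrpd1a-4, an insertion made in Col-0 and crossed repeatedly into Ler for the maternal mutant, and each replicate pooled endosperm from many seeds. The study reports that segments of Col-0 sequence remain in the Ler nrpd1-/- plants. The mat nrpd1+/- endosperm was therefore not Ler by Col-0 at every locus. The authors pooled the 2 replicates before they compared genotypes. The lists therefore give 1 difference for each region and no value for either genotype, no value for a replicate and no read depth, and a spread between replicates cannot be given for any region. Intervals below are 95% intervals that cover the counting of regions only, and no p-value was computed.

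NRPD1 is the largest subunit of RNA polymerase IV, which makes the precursors of small interfering RNAs that guide DNA methylation to transposons and other repeats, where CHH sites are the usual sign of the pathway. Methylation inside Arabidopsis gene bodies is of another kind. It sits at CG sites, is copied after replication by the maintenance methyltransferase MET1, and is typical of long, moderately and broadly expressed genes, away from their 5′ ends. Endosperm carries more maternal than paternal genomes, and part of its maternal genome loses CG methylation through the glycosylase DME.

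To show what such a region looks like, 8 windows are printed here, up to 2 for each list and direction, taken from the largest differences that lay in a single 300-bp window between the first and the last coding base and outside any untranslated exon. Each is the Col-0 reference (RefSeq, TAIR10.1) read 5′ to 3′ on the strand of the gene, with every CG in capitals. The first pair was listed as lower and the second pair as higher in mat nrpd1+/- than in WT. The third pair was listed as lower and the fourth pair as higher in pat nrpd1+/- than in WT.
AT4G13400, chr4:7790101-7790400, minus strand: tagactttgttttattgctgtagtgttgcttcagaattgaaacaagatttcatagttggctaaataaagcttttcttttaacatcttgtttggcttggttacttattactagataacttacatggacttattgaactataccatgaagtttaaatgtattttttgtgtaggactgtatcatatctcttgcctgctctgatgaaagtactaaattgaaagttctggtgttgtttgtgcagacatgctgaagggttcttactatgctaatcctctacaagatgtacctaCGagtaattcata
AT3G51640, chr3:19156501-19156800, plus strand: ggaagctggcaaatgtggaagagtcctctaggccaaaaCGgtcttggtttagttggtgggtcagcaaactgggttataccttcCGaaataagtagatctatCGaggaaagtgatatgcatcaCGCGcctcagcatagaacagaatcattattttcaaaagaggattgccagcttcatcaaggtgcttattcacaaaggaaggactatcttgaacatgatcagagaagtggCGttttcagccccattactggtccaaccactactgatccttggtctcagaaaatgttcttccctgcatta
AT3G02070, chr3:362601-362900, plus strand: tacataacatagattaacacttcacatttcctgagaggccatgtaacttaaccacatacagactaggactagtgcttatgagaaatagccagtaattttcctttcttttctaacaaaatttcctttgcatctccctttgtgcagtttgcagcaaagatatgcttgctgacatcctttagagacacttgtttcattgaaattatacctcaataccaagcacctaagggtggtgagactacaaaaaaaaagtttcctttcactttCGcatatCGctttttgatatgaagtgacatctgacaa
AT3G01380, chr3:145601-145900, minus strand: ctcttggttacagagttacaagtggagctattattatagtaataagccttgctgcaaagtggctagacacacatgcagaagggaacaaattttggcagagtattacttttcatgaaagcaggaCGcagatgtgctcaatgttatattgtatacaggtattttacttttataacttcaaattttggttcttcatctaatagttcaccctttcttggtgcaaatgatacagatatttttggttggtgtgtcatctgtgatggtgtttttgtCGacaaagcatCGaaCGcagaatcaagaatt
AT4G30900, chr4:15040701-15041000, plus strand: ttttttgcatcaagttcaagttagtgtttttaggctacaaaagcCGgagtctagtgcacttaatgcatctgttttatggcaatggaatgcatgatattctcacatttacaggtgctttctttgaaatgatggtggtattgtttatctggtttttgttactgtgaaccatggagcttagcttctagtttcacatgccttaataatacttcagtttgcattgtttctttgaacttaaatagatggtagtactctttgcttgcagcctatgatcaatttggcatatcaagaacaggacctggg
AT2G13790, chr2:5742301-5742600, plus strand: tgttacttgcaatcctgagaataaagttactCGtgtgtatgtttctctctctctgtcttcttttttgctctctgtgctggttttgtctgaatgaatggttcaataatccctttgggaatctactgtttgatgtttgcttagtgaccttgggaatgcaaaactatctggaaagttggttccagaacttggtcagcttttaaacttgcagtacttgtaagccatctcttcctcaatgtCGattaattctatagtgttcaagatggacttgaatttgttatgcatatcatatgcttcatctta
AT5G26180, chr5:9151901-9152200, plus strand: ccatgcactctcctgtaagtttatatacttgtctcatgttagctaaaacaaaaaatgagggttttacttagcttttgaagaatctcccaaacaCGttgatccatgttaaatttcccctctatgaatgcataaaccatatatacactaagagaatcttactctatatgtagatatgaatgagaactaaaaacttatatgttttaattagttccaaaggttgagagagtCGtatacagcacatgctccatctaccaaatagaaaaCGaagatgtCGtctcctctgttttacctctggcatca
AT1G50520, chr1:18719601-18719900, plus strand: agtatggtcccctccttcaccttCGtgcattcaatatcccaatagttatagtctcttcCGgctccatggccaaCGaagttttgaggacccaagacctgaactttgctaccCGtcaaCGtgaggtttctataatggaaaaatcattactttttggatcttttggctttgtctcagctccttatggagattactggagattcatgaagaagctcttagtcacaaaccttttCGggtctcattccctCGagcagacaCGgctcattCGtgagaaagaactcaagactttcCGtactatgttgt

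These windows held 1, 6, 2, 4, 1, 2, 4 and 10 CG sites in the order printed, and the differences were −56.6, −42.3, 57.5, 56.6, −64.7, −50.0, 59.2 and 53.5 percentage points. The windows of AT3G51640, a stress response NST1-like protein, and AT1G50520, the cytochrome P450 CYP705A27, were coding throughout. Those of AT4G13400 and AT4G30900, with 1 CG site each, held 61 and 38 coding bases and were otherwise intron.

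The sign of the difference was evenly split in both lists. CG methylation was lower than WT in 90 of the 190 mat nrpd1+/- regions (47.4%, exact binomial interval 40.1 to 54.7) and in 83 of the 161 pat nrpd1+/- regions (51.6%, 43.6 to 59.5). The mat minus pat difference in this share was −4.18 percentage points, with a Newcombe interval of −14.5 to 6.25. Methylation was higher than WT in the other 100 mat nrpd1+/- regions and 78 pat nrpd1+/- regions. These counts read against the lists as a whole, in which 48.5% of the mat nrpd1+/- rows were lower and 51.5% higher than WT, and 60.1% of the pat nrpd1+/- rows were lower and 39.9% higher. The rule used these same differences, so the comparison is a description. For mat nrpd1+/-, the members (47.4%) and the rows that were not members (201 of 410, 49.0%, 44.1 to 54.0) had similar shares of losses. For pat nrpd1+/-, the members (51.6%) had a smaller share of losses than the rows that were not members (342 of 546, 62.6%, 58.4 to 66.7).

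In the pat nrpd1+/- list the split followed genes rather than the single-list condition. Beside the 51.6% of the members, rows inside genes that overlapped another list were lower than WT in 75 of 172 cases (43.6%, 36.1 to 51.4). Single-list rows outside protein-coding genes were lower than WT in 137 of 190 cases (72.1%, 65.2 to 78.4), and rows outside genes that overlapped another list in 130 of 184 cases (70.7%, 63.5 to 77.1). The mat nrpd1+/- list had no such contrast, with 47.4% for the members, 45.7% (38.1 to 53.4) for the 173 single-list rows outside genes, 50.7% for the 140 rows in genes that overlapped another list and 52.6% for the 97 such rows outside genes.

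The differences were close to the limit of listing. The median absolute difference was 34.3 points (33.5 to 35.2) in mat nrpd1+/- regions and 34.6 points (33.8 to 35.6) in pat nrpd1+/- regions. In 104 of 190 mat nrpd1+/- regions (54.7%) and 87 of 161 pat nrpd1+/- regions (54.0%) it was under 35 points. The smallest among the members were 30.07 points in AT3G14172 and AT3G23310 for mat nrpd1+/-, and −30.02 points in AT1G70320 and −30.05 points in AT5G57690 for pat nrpd1+/-. The smallest absolute differences were 30.05 points for the whole mat nrpd1+/- list and 30.01 points for the whole pat nrpd1+/- list, so the lists hold no row below the limit. Differences of at least 40 points were found in 28 mat nrpd1+/- regions (14.7%, 10.02 to 20.6) and 39 pat nrpd1+/- regions (24.2%, 17.8 to 31.6). The mat minus pat difference in this share was −9.49 points (−17.9 to −1.21), with no adjustment for the number of comparisons. Sequence kept by the authors' filters in all genotypes held 96.4% of these mat nrpd1+/- regions but 64.1% of these pat nrpd1+/- regions. The difference was not computed within that common sequence, so it does not compare the heterozygotes over the same genome. Of the 28 in mat nrpd1+/-, 9 were losses and 19 gains; of the 39 in pat nrpd1+/-, 17 were losses and 22 gains.

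Most members were as short as a listed region can be. A single 300-bp window made up 166 of the 190 mat nrpd1+/- regions (87.4%, 81.8 to 91.7) and 125 of the 161 pat nrpd1+/- regions (77.6%, 70.4 to 83.8). The shares among the rows that were not members were 65.1% (60.3 to 69.7) and 54.2% (49.9 to 58.5). The longest mat nrpd1+/- region was a 600-bp loss of 30.5 points in AT5G56190, a WD40 repeat protein. The longest pat nrpd1+/- region was a 1100-bp loss of 32.3 points with 35 CG sites in AT1G75945, an uncharacterized gene.

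Members rested on few CG sites. The median region held 4 CG sites in both lists, with 1 to 33 among mat nrpd1+/- regions and 1 to 35 among pat nrpd1+/- regions. Per 100 bp the median was 1.33 sites (1.25 to 1.5) in mat nrpd1+/- regions and 1.33 (1.25 to 1.67) in pat nrpd1+/- regions. Pieces of 300 bp cut from every retained protein-coding gene had a median of 2.33 sites per 100 bp for either comparison, where retained means wholly inside the sequence that passed the authors' maternal-share filter in both genotypes compared. The rest of the host genes themselves had a median of 2.00 sites per 100 bp in both lists. Within its own gene, the listed region had fewer CG sites per 100 bp than the remaining pieces in 157 of 182 mat nrpd1+/- genes (86.3%, 80.4 to 90.9) and in 125 of 157 pat nrpd1+/- genes (79.6%, 72.5 to 85.6). Rows in genes that overlapped another list were also CG-poor, with medians of 1.12 sites in the mat nrpd1+/- list and 1.5 in the pat nrpd1+/- list, whereas single-list rows outside genes had medians of 2.00 and 1.90.

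Large differences were counted by the number of CG sites. Regions with 1 or 2 CG sites numbered 43 in mat nrpd1+/- and 36 in pat nrpd1+/-. Of these, 11 mat nrpd1+/- regions (25.6%, 13.5 to 41.2) and 14 pat nrpd1+/- regions (38.9%, 23.1 to 56.5) differed by at least 40 points. Among regions with more sites, 17 of 147 (11.6%, 6.88 to 17.9) in mat nrpd1+/- and 25 of 125 (20%, 13.4 to 28.1) in pat nrpd1+/- did so. The share was larger with 1 or 2 sites in both lists. The separate intervals overlap, which does not compare the shares, and no interval of their difference was computed. With more than 8 sites the counts were 3 of 13 mat nrpd1+/- regions (23.1%, 5.04 to 53.8) and 6 of 23 pat nrpd1+/- regions (26.1%, 10.2 to 48.4). A single CG site, which gives only a pair of cytosines, was all that 8 mat nrpd1+/- regions and 17 pat nrpd1+/- regions held in the Col-0 reference, fewer than the minimum per window that the study's methods state. Sites present in Ler and absent from Col-0 were not counted here. The study aligned its bisulfite reads to TAIR10, a Col-0 genome, and why regions with a single CG site were listed was not tested. No row of any of the 3 CG lists was without a CG site in the reference.

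**Figure D1:**
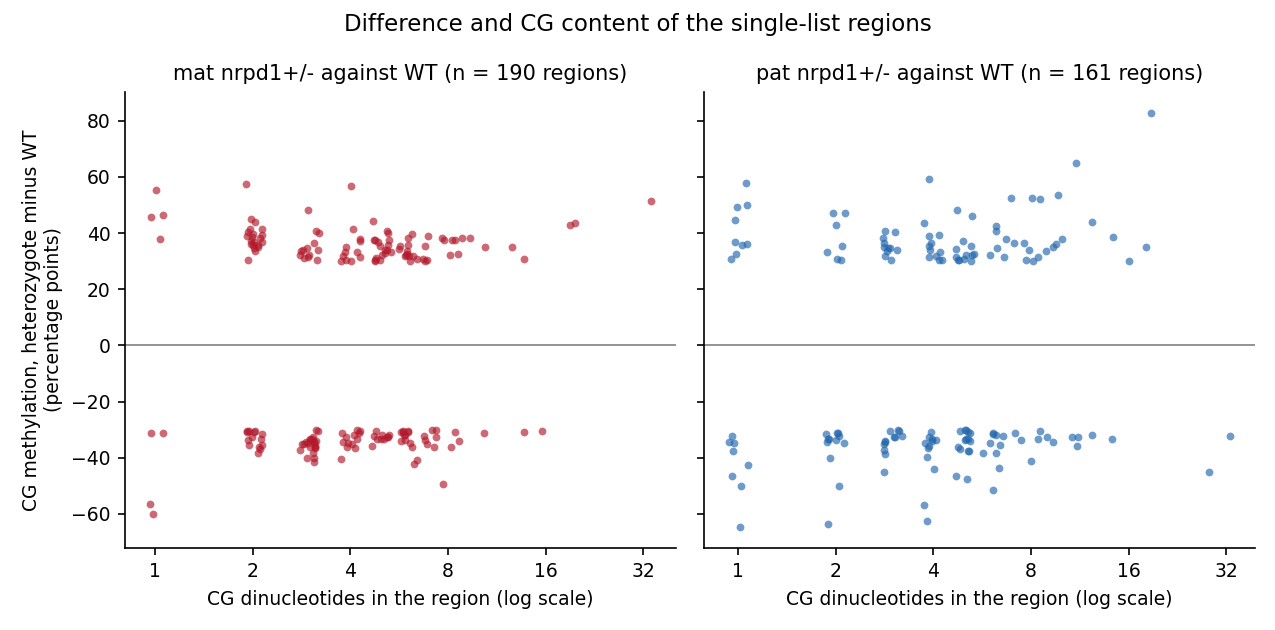
CG methylation difference, heterozygote minus WT in percentage points, against the number of CG dinucleotides in the reference (log scale, points shifted slightly sideways) for the 190 mat nrpd1+/- regions (left) and the 161 pat nrpd1+/- regions (right). Each point is 1 region; no value lies between −30.02 and 30.07 points because of the listing limit, and regions with 1 or 2 CG sites reach −60.0 points in mat nrpd1+/- compared with −64.7 points in pat nrpd1+/-.

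Among mat nrpd1+/- regions, the largest loss was −60.0 points in CPSF30 (AT1G30460), a subunit of the complex that cleaves and polyadenylates messenger RNA, at chr1:10773901-10774200, with 1 CG site. It was followed by −56.6 points in AT4G13400, a 2-oxoglutarate-dependent oxygenase, and −49.4 points over 8 CG sites in AT4G01130, a GDSL-like lipase. Losses of −42.3, −41.7 and −41.0 points lay in AT3G51640, in AT3G57940, a GNAT acetyltransferase, and in AT5G22470, a poly ADP-ribose polymerase. The midpoints of the first 3 of these losses were in intron or in exon sequence that no annotated transcript translates, and those of the last 3 in coding exons.

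The largest gains in mat nrpd1+/- were 57.5 points in AT3G02070, a cysteine proteinase, 56.6 points in AT3G01380, a sulfatase domain protein, and 55.4 points in AT5G20080, an oxidoreductase with 1 CG site in the region. AT4G20953, an uncharacterized gene, gained 51.4 points over 400 bp with 33 CG sites, the most of any mat nrpd1+/- region. AT5G51980, a WD40 repeat protein, gained 48.1 points and HGL1 (AT3G23640), annotated as a heteroglycan glucosidase, 46.6 points with 1 CG site. All 12 of these extreme mat nrpd1+/- regions lay in sequence retained by all 3 genotypes, and none overlapped a listed CHH region.

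Among pat nrpd1+/- regions, losses reached −64.7 points in AT4G30900, a DNAse I-like protein, −63.7 points in AT3G25727, annotated as a non-LTR retroelement reverse transcriptase, and −62.6 points in AT4G10510, a subtilase, that is a serine protease. AT3G46710, an NB-ARC disease resistance protein of the class of intracellular immune receptors, had −57.0 points at its 3′ end, and AT1G80750, a ribosomal protein, had −51.4 points 13 bp from its 3′ end. SERK4 (AT2G13790), a receptor-like kinase that acts as a coreceptor in brassinosteroid and immune signalling, and SMU1 (AT1G73720), a WD40 splicing factor, tied at −50.0 points.

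The largest gain of either list was 82.9 points in AT1G66320, an F-box protein, over 500 bp with 20 CG sites at chr1:24728301-24728800, which reached across the 5′ end of the gene and held 314 coding bases. AT4G16940, a TIR-NBS-LRR disease resistance protein, gained 65.0 points over 500 bp with 11 CG sites. Gains of 59.2, 57.9, 53.5 and 52.5 points lay in AT5G26180, a methyltransferase-like protein, AT2G38580, an ATP synthase-related protein, CYP705A27 and AT3G18500, a DNAse I-like protein. Of these 13 extreme pat nrpd1+/- regions, 8 lay in sequence retained by all 3 genotypes and none overlapped a listed CHH region. Those of AT1G66320, AT2G38580, AT1G80750, SMU1 and CYP705A27, whose window is printed above, lay where mat nrpd1+/- had no retained sequence. Neither of the other lists could hold a row there. The lists name no replicate, so whether any of these differences exceeds the spread between replicates was not tested.

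Regions lay away from the 5′ ends of genes. The median midpoint was at 0.56 of the gene length from the start (0.52 to 0.62) in mat nrpd1+/- regions and at 0.57 (0.49 to 0.65) in pat nrpd1+/- regions. Of 5 equal parts of the gene, the one at the 5′ end held 9 mat nrpd1+/- midpoints (4.74%, 2.19 to 8.80) and 15 pat nrpd1+/- midpoints (9.32%, 5.31 to 14.9), against the 20% that equal spacing along the gene gives. The middle part was the most filled in mat nrpd1+/- (59 midpoints, 31.1%, 24.6 to 38.2) and the next one towards the 3′ end in pat nrpd1+/- (52 midpoints, 32.3%, 25.2 to 40.1). In the middle part the mat minus pat difference was 10.6 percentage points (1.32 to 19.4), 1 of 5 parts compared and with no adjustment for their number. The part at the 3′ end held 38 mat nrpd1+/- midpoints (20%) and 27 pat nrpd1+/- midpoints (16.8%). Losses and gains lay at similar places, with medians of 0.59 and 0.56 in mat nrpd1+/- and of 0.60 and 0.53 in pat nrpd1+/-.

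**Figure D2:**
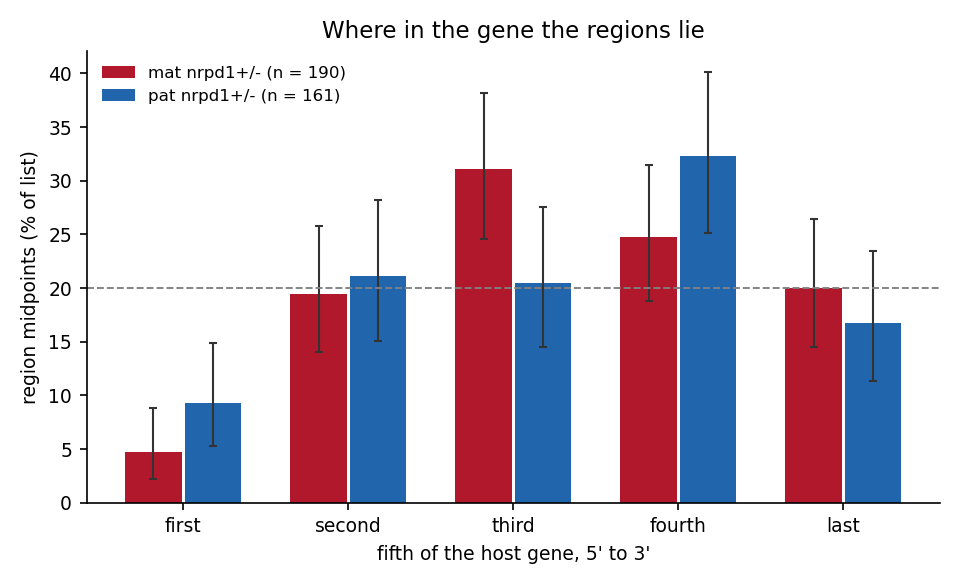
Share of region midpoints (percent of the list) in each of 5 equal parts of the host gene, read 5′ to 3′, for mat nrpd1+/- (190 regions, left bar of each pair) and pat nrpd1+/- (161 regions, right bar); error bars are exact 95% binomial intervals and the dashed line is 20%. The part at the 5′ end held 4.74% and 9.32% of the midpoints, and the intervals of both bars there lie below the line.

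By gene feature the members resembled the genes that held them. Midpoints were in coding exons for 96 mat nrpd1+/- regions (50.5%, 43.2 to 57.8) and 76 pat nrpd1+/- regions (47.2%, 39.3 to 55.2), and in introns for 76 (40%, 33.0 to 47.3) and 67 (41.6%, 33.9 to 49.6). The remaining pieces of the same genes were coding at 49.3% and intronic at 38.8% of their midpoints in mat nrpd1+/- host genes, and coding at 46.8% and intronic at 41.7% in pat nrpd1+/- host genes. Retained genes as a whole were less intronic, at 29.9% and 29.7%. Few midpoints were in a 5′ UTR, 2 in mat nrpd1+/- (1.05%, 0.128 to 3.75) and 3 in pat nrpd1+/- (1.86%, 0.386 to 5.35), where 5.53% and 4.49% of the pieces of the host genes were. Midpoints in a 3′ UTR numbered 12 (6.32%) and 14 (8.70%). Counting the whole window, 177 mat nrpd1+/- regions (93.2%) and 147 pat nrpd1+/- regions (91.3%) held some coding sequence.

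The sign of the difference was counted by feature. Of the 76 intronic mat nrpd1+/- regions 28 were lower than WT (36.8%, 26.1 to 48.7) and 48 higher, while the 96 coding-exon regions divided into 49 lower (51.0%, 40.6 to 61.4) and 47 higher. In pat nrpd1+/- the intronic regions divided into 35 lower (52.2%, 39.7 to 64.6) and 32 higher, and the coding-exon regions into 39 lower (51.3%, 39.6 to 63.0) and 37 higher. The intervals of the intronic and coding-exon shares overlap in both lists, and no interval of the difference between these shares was computed.

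**Figure D3:**
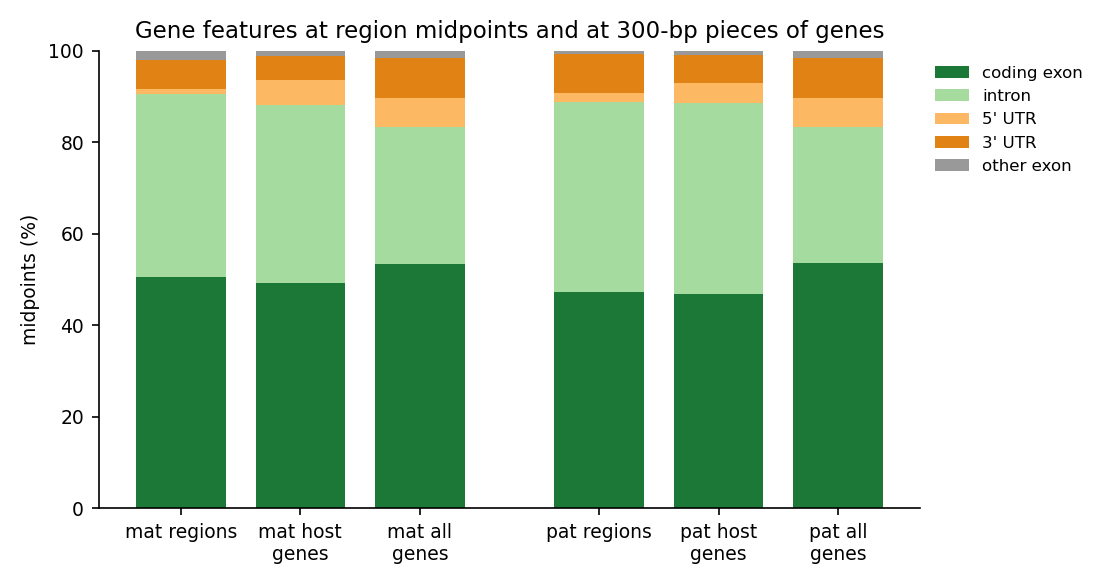
Gene feature at the midpoint, in percent, of the mat nrpd1+/- regions (left 3 bars) and the pat nrpd1+/- regions (right 3 bars), each followed by 300-bp pieces of the same host genes without the regions and by 300-bp pieces of all retained genes. Coding exons hold 50.5% and 47.2% of region midpoints and introns 40% and 41.6%, near the host genes and above the 29.9% and 29.7% intronic share of all retained genes.

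Host genes were long. Their median length was 3846 bp (3509 to 4169) for the 183 mat nrpd1+/- genes and 3449 bp (3231 to 3903) for the 158 pat nrpd1+/- genes, against 2077 bp for the 20736 genes retained for the mat nrpd1+/- comparison and 2084 bp for the 25905 retained for the pat nrpd1+/- comparison. More than 3000 bp were spanned by 125 mat nrpd1+/- host genes (68.3%, 61.0 to 74.97) and 108 pat nrpd1+/- host genes (68.4%, 60.5 to 75.5), where 25.6% of the retained genes were that long in either case. The median number of exons was 11 (8 to 12) in mat nrpd1+/- genes and 8 (7 to 9) in pat nrpd1+/- genes, and 4 in retained genes. Longer genes offer more windows, and how far this alone gives the excess was not tested. To place these counts, a listed CG region of either sign had its midpoint in 1.54% of the genes retained for mat nrpd1+/- and in 1.28% of those retained for pat nrpd1+/-.

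**Figure D4:**
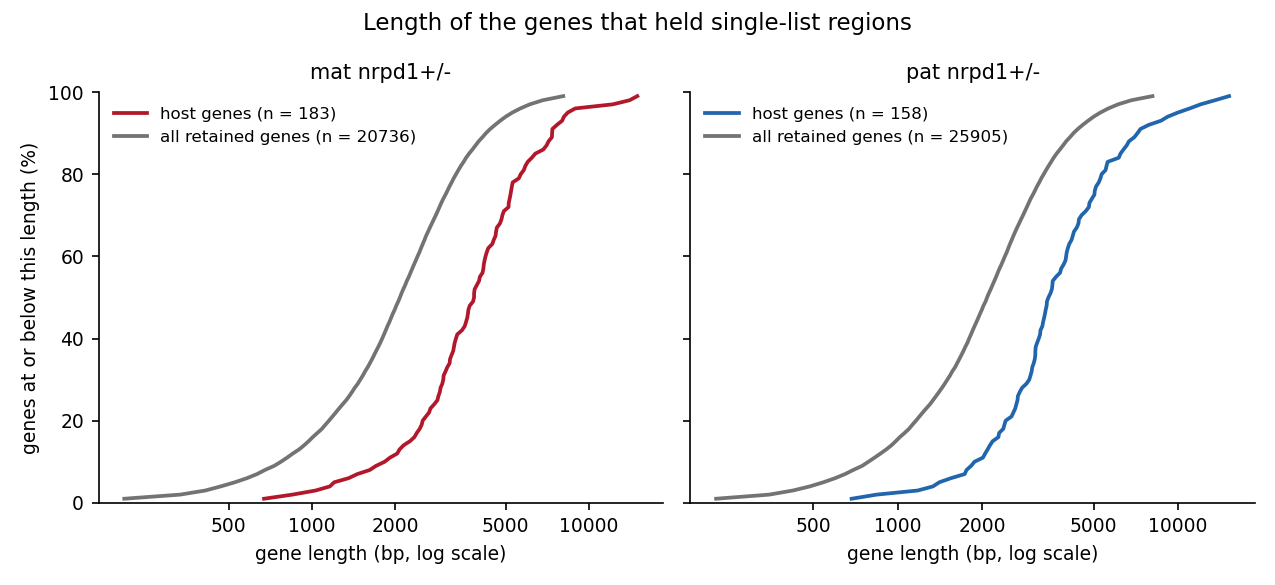
Cumulative share of genes (percent) by gene length (bp, log scale) for the host genes of mat nrpd1+/- regions (left) and pat nrpd1+/- regions (right), each beside all retained protein-coding genes in grey. The median is 3846 bp against 2077 bp on the left and 3449 bp against 2084 bp on the right.

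Members of both lists were held by 6 genes, 3.28% of the mat nrpd1+/- host genes and 3.797% of the pat nrpd1+/- host genes. For scale, a mat nrpd1+/- member lay in 181 of the 20736 genes retained for that comparison (0.873%) and a pat nrpd1+/- member in 157 of 25905 (0.606%). The host genes were longer than retained genes, the rule had removed rows that overlapped between lists, and both comparisons share the WT samples, so nothing is read from this count. GSL10 (AT3G07160), a callose synthase, had −38.3 points in mat nrpd1+/- compared with −30.5 points in pat nrpd1+/-, in windows 500 bp apart near its 3′ end. AT2G02780, a leucine-rich repeat kinase, had −33.5 points in mat nrpd1+/- compared with −30.1 points in pat nrpd1+/-. AT5G61140, a helicase of the U5 small nuclear ribonucleoprotein, had −31.0 points with 1 CG site in mat nrpd1+/- and −31.3 points with 2 CG sites in pat nrpd1+/-. All of these were losses in both heterozygotes.

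FAAH (AT5G64440), which hydrolyses fatty acid amides, had 31.4 points in mat nrpd1+/- compared with 39.0 points in pat nrpd1+/-, and AT1G35895, an uncharacterized gene, had 34.996 points in mat nrpd1+/- compared with 34.1 points in pat nrpd1+/-. The sixth gene, AT5G40450, annotated as an A-kinase anchor-like protein, was the only one whose regions had opposite signs, with 33.5 points in mat nrpd1+/- compared with −34.1 points in pat nrpd1+/-, 1100 bp apart in a long coding exon. All 12 regions lay in sequence retained by all 3 genotypes.

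**Figure D5:**
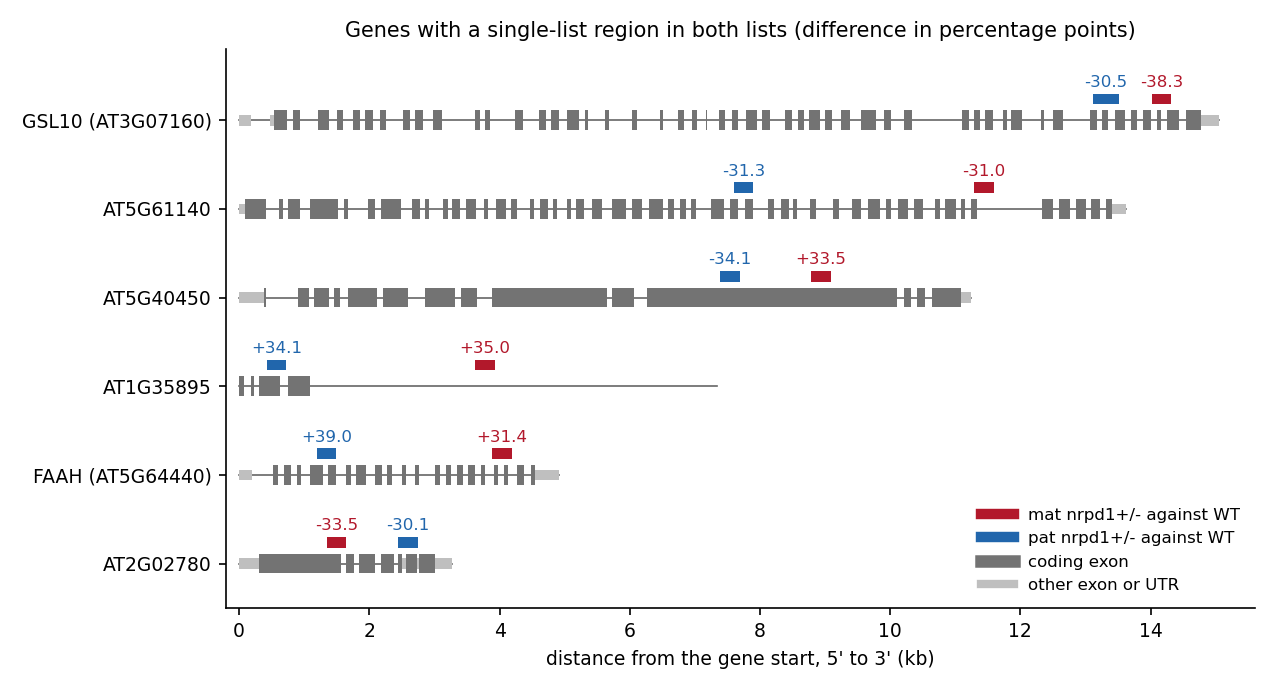
The 6 genes that held a single-list region in both lists, drawn to scale from the gene start (kb, 5′ to 3′), with coding exons as tall dark boxes, other exon sequence as low light boxes and regions above them labelled with their difference from WT in percentage points. Signs match in 5 genes; in AT5G40450 the mat nrpd1+/- region is at 33.5 and the pat nrpd1+/- region at −34.1 points.

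Within 1 list, 7 genes held 2 mat nrpd1+/- regions and 3 genes held 2 pat nrpd1+/- regions, and none held more. Of the 7 mat nrpd1+/- genes, 4 had the same sign in both regions. Losses were paired in RAPTOR1 (AT3G08850), the substrate-binding partner of the TOR kinase (−34.2 and −30.5 points), in EMB2771 (AT5G05560), annotated as an E3 ubiquitin ligase (−33.3 and −34.3 points), and in AT4G24610 (−30.8 and −33.2 points). Gains were paired in EMB3142 (AT5G51200), a nuclear pore protein (33.9 and 41.3 points). The other 3 had 1 gain and 1 loss each, namely PAB2 (AT4G34110), a poly(A) binding protein (36.8 and −31.5 points), GFA2 (AT5G48030), a mitochondrial chaperone needed in the female gametophyte (33.3 and −38.3 points), and AT3G01380 (56.6 and −36.1 points). All 3 pat nrpd1+/- genes had 1 gain and 1 loss, which were 42.9 and −34.3 points in AT1G58400, 34.3 and −32.6 points in AT1G58602 and 30.3 and −32.1 points in STY8 (AT2G17700), a kinase. These 10 genes were named because they held 2 regions, a choice made after the values were seen.

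Overlap with listed CHH regions was counted for members and for the other rows. A CHH region of any of the 3 CHH lists overlapped 5 mat nrpd1+/- regions (2.63%, 0.860 to 6.03) and 4 pat nrpd1+/- regions (2.48%, 0.681 to 6.24). The rows in genes that overlapped another CG list did so in 3 of 140 cases (2.14%, 0.444 to 6.13) in mat nrpd1+/- and 3 of 172 cases (1.74%, 0.361 to 5.01) in pat nrpd1+/-. Single-list rows outside genes overlapped one in 16 of 173 cases (9.25%, 5.38 to 14.6) in mat nrpd1+/- and 19 of 190 cases (10%, 6.13 to 15.2) in pat nrpd1+/-. In the same comparison, CHH and CG differed in 3 mat nrpd1+/- regions and in no pat nrpd1+/- region (0 of 161, exact interval up to 2.27%). In CKX3 (AT5G56970), a cytokinin oxidase, CG was 43.5 points and CHH 18.4 points above WT. In AIG2 (AT3G28930) CG was 34.6 points and CHH 15.8 points below WT. In AT5G24060, a pentatricopeptide repeat protein, CG was 30.2 points below and CHH 12.1 points above WT. These 3 genes were named after the overlap was seen.

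The 2 lists did not cover the same genome. All 190 mat nrpd1+/- regions lay wholly in sequence that passed the maternal-share filter in all 3 genotypes, but only 113 of the 161 pat nrpd1+/- regions did (70.2%, 62.5 to 77.1). The other 48, of which 42 were on chromosome 1, 4 on chromosome 2 and 2 on the remaining chromosomes, lay where the mat nrpd1+/- genotype had no retained sequence, so neither of the other lists could hold a row there and each was single-list by construction. In genes retained by all 3 genotypes, 190 of 330 mat nrpd1+/- rows (57.6%, 52.0 to 63.0) and 113 of 285 pat nrpd1+/- rows (39.6%, 33.9 to 45.6) were single-list, where counting every row in a gene gives 57.6% and 48.3%. After regions that varied between replicates in any genotype were also set aside, 188 mat nrpd1+/- and 111 pat nrpd1+/- regions remained over 49.3 Mb of genes, 3.81 and 2.25 per Mb. In this common sequence CG methylation was lower than WT in 47.9% of the mat nrpd1+/- regions (40.5 to 55.3) and in 52.3% of the pat nrpd1+/- regions (42.6 to 61.8).

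The maternal share of reads, the authors' pooled value for the 3 genotypes, had medians between 0.636 and 0.643 over the members and ranged from 0.538 to 0.681. More maternal than paternal reads is what endosperm should give, but the filter kept only such sequence, so this is no independent check of the tissue. Methylation lists hold no expression markers.

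By chromosome the mat nrpd1+/- regions numbered 25, 21, 48, 42 and 54 on chromosomes 1 to 5, and the pat nrpd1+/- regions 55, 20, 26, 26 and 34. Per Mb of retained gene sequence, mat nrpd1+/- ranged from 2.997 on chromosome 1 to 4.35 on chromosome 4, and pat nrpd1+/- from 2.10 on chromosome 3 to 3.45 on chromosome 1. Within sequence retained by all 3 genotypes chromosome 1 held 23 mat nrpd1+/- regions and 13 pat nrpd1+/- regions, and on each of the 5 chromosomes the mat nrpd1+/- number per Mb was above that of pat nrpd1+/-.

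Disease resistance genes, found by their annotated product, made up 3 of the 183 mat nrpd1+/- host genes (1.64%, 0.339 to 4.72), against 0.690% of retained genes, and 9 of the 158 pat nrpd1+/- host genes (5.70%, 2.64 to 10.5), against 0.714%. Of the 11 pat nrpd1+/- regions, 8 in 6 genes lay on chromosome 1 where mat nrpd1+/- had no retained sequence. These included 52.4 points in AT1G58410, 44.1 points in AT1G61310 and 36.0 points in its neighbour AT1G61300, and −36.2 points in AT1G63870. In sequence retained by all 3 genotypes each list had 3 such genes, which is 1.64% of the mat nrpd1+/- host genes there (0.339 to 4.72) and 2.68% of the pat nrpd1+/- host genes (0.556 to 7.63). In mat nrpd1+/- they were AT5G40100 at −35.5, AT3G51560 at 33.2 and AT1G12280 at −30.4 points. In pat nrpd1+/- they were AT4G16940 at 65.0, AT3G46710 at −57.0 and AT4G16960 at 33.5 points. The disease resistance genes were named here after their values were seen. Such genes form tandem families of similar copies, and how their reads were divided between copies and between Ler and Col-0 was not tested.

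Leucine-rich repeat proteins took in every one of these disease resistance genes except AT3G46710, so their shares count those genes again. They had 6 mat nrpd1+/- genes (3.28%, 1.21 to 7.00, against 1.51% of retained genes). They had 12 pat nrpd1+/- genes (7.59%, 3.99 to 12.9, against 1.55%). Of these, 6 lay where mat nrpd1+/- had no retained sequence, and all 6 were the disease resistance genes already counted there. In sequence retained by all 3 genotypes each list had 6 such genes. These were 3.28% of the mat nrpd1+/- host genes there (1.21 to 7.00) and 5.36% of the pat nrpd1+/- host genes (1.99 to 11.3), against 1.51% of retained genes. Both groups were matched by words of the annotated product and picked after their values were seen. Other product groups matched in this way took in unrelated proteins or missed members, so their counts are not reported here. The intervals were not adjusted for the number of groups looked at, and host genes were longer than retained genes.

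Genes of the methylation pathways, of Polycomb and imprinting and of endosperm growth were looked up in 4 lists with 77 genes in all. No gene held a mat nrpd1+/- region, where 58 were wholly retained (exact interval up to 6.16%, against 0.873% of all retained genes). A pat nrpd1+/- region lay in 3 of 76 retained genes (3.95%, 0.822 to 11.1, against 0.606%). CMT3 (AT1G69770), the chromomethylase that maintains CHG methylation, was 40.1 points below WT in pat nrpd1+/- at chr1:26249701-26250000, where mat nrpd1+/- had no retained sequence. The CMT3 window held 2 CG sites and had its midpoint in an intron. KTF1 (AT5G04290), a partner of RNA polymerase V and Argonaute proteins in RNA-directed DNA methylation, was 34.98 points below WT over 3 CG sites. SUVH9 (AT4G13460), which helps to bring polymerase V to methylated DNA, was 30.9 points above WT over 2 CG sites. Its window overlapped a CHH region that varied between replicates in each of the 3 genotypes, but no such CG region. By list, 1 of 17 genes of DNA methylation and demethylation and 2 of 24 genes of RNA-directed DNA methylation held a pat nrpd1+/- region, and none of the 19 Polycomb and imprinted genes or the 17 genes of endosperm growth and sugar transport did. CMT3 (5570 bp), KTF1 (6968 bp) and SUVH9 (3111 bp) were longer than the 2084-bp median of the genes retained for pat nrpd1+/-. The shares were not matched for gene length, so no excess is read from them.

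The limits of the rule touched few regions. The member midpoints nearest to a gene edge were 11 bp inside, in AT3G17570 and AT5G37150 for mat nrpd1+/-, and 13 bp inside, in AT1G80750 for pat nrpd1+/-. The single-list rows just outside were 34 bp from AT2G20390 in mat nrpd1+/- and 21 bp from AT3G26870 in pat nrpd1+/-, and 5 and 10 such rows lay within 150 bp of a gene. The nearest row of another CG list was 200 bp from a mat nrpd1+/- member, in AT3G47690, and 100 bp from a pat nrpd1+/- member, in AT3G27610. Just outside, the smallest overlap that left out a row in a gene was 100 bp in mat nrpd1+/- and 200 bp in pat nrpd1+/-. Another list's region lay within 1000 bp of 12 mat nrpd1+/- members (6.32%) and 11 pat nrpd1+/- members (6.83%). The midpoint lay in more than 1 gene for 2 mat nrpd1+/- and 4 pat nrpd1+/- members.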

How the data were processed

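Bisulfite reads from 6 endosperm libraries were handled by the authors with Trim Galore, FastQC and Bismark against TAIR10. The authors pooled the 2 replicates of each genotype, computed methylation in 300-bp sliding windows, kept sequence with the maternal share of reads that endosperm should have, removed windows that varied between replicates, and merged differing windows. The deposited lists give 1 difference per region, heterozygote minus WT, in percentage points. The maternal share is a deposited fraction, pooled by genotype. The authors required a minimum of reads per cytosine and of cytosines per window; the deposited lists hold no reads, so depth per region is not analysed here.

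The deposited starts count from 0; printed coordinates count from 1. Gene extents, exons and sequences came from RefSeq TAIR10.1. On all 5 nuclear chromosomes the lists end at or before the end of that reference, and exactly at it on chromosomes 3 and 5. Overlap meant at least 1 shared base. Shares carry exact Clopper-Pearson intervals, differences of shares Newcombe intervals and medians distribution-free binomial intervals, all at 95% (Python 3.11.15, NumPy 2.4.6, pandas 2.3.3, SciPy 1.17.1, Matplotlib 3.10.9). The functions were tested on simulated regions. Genes named are, for each list, the 6 largest losses and gains (ties included), members in genes of both lists or in the 4 fixed gene lists, members nearest to the limits of the rule with the rows just outside, and others said to be chosen later. Alternatives varied the overlap, gene and difference limits, the region length, the retained sequence, the chromosomes and the regions per gene. The members and lists were chosen with earlier results of these data known.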

Additional observations from a re-analysis of the deposited data

Results flagged for a closer look

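In 1 gene, AT5G40450, the mat nrpd1+/- region was 33.5 points above WT and the pat nrpd1+/- region 34.1 points below it (−34.1), so that the heterozygotes had opposite signs in the same gene. With pooled replicates and 1 region each, the difference between them was not tested, and the regions cover different windows. Groups of 2 replicates, pooled, gave no sample to set apart from the others.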

How the results depend on the processing

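Of 247 values recomputed for 19 results under 13 alternatives, 219 stayed within the interval of the reported value (counts within 1.5 times) and 28 did not. Rows of another list within 300 bp, 50% coverage, whole or any overlap with the gene, 1 region per gene and leaving out chromosome 2, 3, 4 or 5 moved none. With differences of at least 40 points, the numbers fell to 28 mat and 39 pat regions, the share of losses in mat to 32.1%, the medians of absolute difference were 43.2 (mat) and 47.2 points (pat), the median positions 0.47 and 0.49, CG sites in mat 1 per 100 bp, host genes in pat 4088 bp and CHH overlap in mat 7.14%. Without single windows, 24 mat and 36 pat regions were left, with medians of 0.42 and 0.47 for position, 35.7 points and 3544 bp in mat, coding-exon shares of 58.3% and 63.9%, retained shares of 91.7% and 47.2%, and CHH overlap of 8.33% and 0%. Without chromosome 1, pat had 106 regions, 38.7% in coding exons, and 92.5% were retained by all genotypes (mat 100%). Restricting to sequence retained by all 3 genotypes makes that share 100% in both by construction. For the other moves, apart from the limit's own effect on numbers and sizes, the cause was not tested. No paired analysis was possible because the replicates were pooled before deposit, and for the same reason no replicate could be left out. The lists give no depth per region (the authors required a minimum of reads per cytosine), so precision within a region cannot be given.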
